A study of Homo sapiens with 4 samples.

Results

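The unfolded protein response (UPR) and the integrated stress response (ISR) were followed through 10 genes listed by name: ATF4, DDIT3, ASNS, TRIB3, CHAC1, HSPA5, HSP90B1, XBP1, HERPUD1 and DNAJB9. They were found among the 60564 genes of the count tables by Ensembl identifier and GENCODE symbol, and all 10 passed the filter on low counts that left 22555 genes for testing. RNA was sequenced from Elf1, an established naïve human embryonic stem cell (ESC) line, with 2 libraries from 2-D grown cells and 2 from 3-D grown cells. The 2-D grown cells were adherent on plastic coated with Matrigel, and no time in culture is given for them. The 3-D grown cells were single cells enclosed in self-assembling scaffolds of PEG-8-SH and PEG-8-Acr, which are polyethylene glycol polymers with thiol or acrylate ends, and were kept there for 21 days. Per the study's methods, all cells had the same ESC medium with FGF2, CHIR99021, PD03296501 and LIF, the line was kept on mouse embryonic feeder cells before it was moved to Matrigel, and the replicates were independent biological replicates. Every library therefore comes from 1 cell line, and differences apply to that line.

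Misfolded protein in the lumen of the endoplasmic reticulum (ER) is sensed by the membrane proteins PERK, IRE1 and ATF6. IRE1 removes a short intron from XBP1 mRNA, ATF6 is cut to release a transcription factor, and together these raise the chaperones and the machinery that carries misfolded proteins out for degradation. PERK is also a kinase of the ISR, as are HRI, PKR and GCN2, which respond to heme or mitochondrial stress, double-stranded RNA and amino acid shortage. All of these kinases phosphorylate the initiation factor eIF2, which lowers translation in general while ATF4 mRNA is translated more. Spliced XBP1, cut ATF6, phosphorylated eIF2 and the translation of ATF4 are not seen in counts per gene, so what follows is the amount of each mRNA.

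Total counts were 30114220 to 33833778 in the 2-D libraries and 18276147 to 21154409 in the 3-D libraries, and the members had 59 to 40763 counts per library. Values per library are CPM, the counts scaled to a common library size, with TMM normalization. A gene was called where edgeR's quasi-likelihood test gave an adjusted p (Benjamini-Hochberg, over every tested gene) below 0.05, and 1782 genes (7.90%) were called, of which 1024 (4.54%) had more and 758 (3.36%) less RNA in the 3-D libraries. Mitochondrially encoded genes held 5.10% to 5.30% of the counts in 2-D and 8.33% to 8.50% in 3-D grown cells, and the part of this difference in the results was not tested. POU5F1, SOX2, NANOG and LIN28A, which mark pluripotent cells, were at 109 to 1812 CPM in all libraries. Markers of the naïve state varied in level. TFCP2L1 was at 22.1 to 23.8 CPM, DNMT3L at 14.6 to 17.9, KLF4 at 9.26 to 10.4 and DPPA3 at 5.75 to 7.43. KLF17 was at 0.465 to 1.07 CPM and DPPA5 at 0 to 0.130 CPM. None of the 11 tested pluripotent cell markers, 6 germ layer markers or 6 trophoblast markers was called. In bulk RNA, fewer cells that express a gene and less of its RNA per cell cannot be told apart.

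The stress response genes differed little with the culture condition. Only ATF4, the central transcription factor of the ISR, was called, at 1.10 times its 2-D level, which is 1 of 10 members beside 7.90% of all tested genes. The other 9 members differed from their 2-D level by -24.2% to 9.04% and were not called. Members went both ways, with 4 higher and 6 lower in the 3-D libraries. Their median log2 fold change was -0.049 beside -0.00014 over all tested genes, and 4 members had an unadjusted p below 0.05 (21.3% of all tested genes were). The libraries of both conditions did not overlap in 9 of 10 members, 4 higher and 5 lower in 3-D, beside 50.5% of all tested genes.

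**Figure D1:**
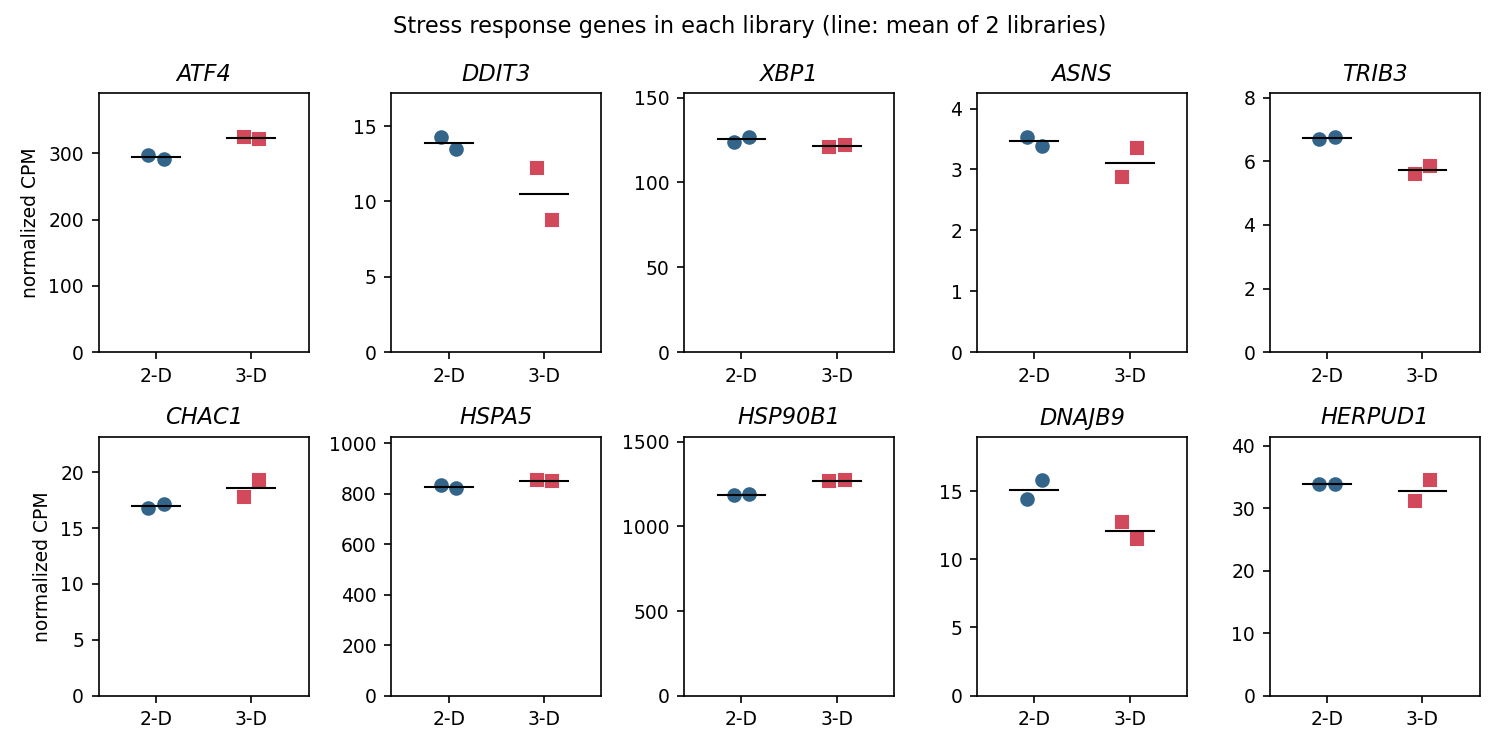
Normalized CPM (vertical axes, each from 0) of the 10 stress response genes in the 2-D (circles) and 3-D (squares) libraries, with a line at the mean of 2 libraries. ATF4 sits at 291 to 298 CPM in 2-D and 321 to 325 CPM in 3-D grown cells, and DDIT3 is the member whose 3-D libraries lie furthest apart for their level, at 12.2 and 8.76 CPM.

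ATF4 (ENSG00000128272.14, hg38 chr22:39519695-39522683, plus strand) encodes the basic leucine zipper factor that turns on genes of amino acid supply and of the response to persistent stress. Its level was 298 and 291 CPM in the 2-D libraries and 325 and 321 CPM in the 3-D libraries, from 5762 to 10261 counts. Both 3-D libraries were above both 2-D libraries, and the libraries of a condition differed little. The log2 fold change was 0.14 ± 0.030 (SE, n = 2 and 2; 95% interval 0.070 to 0.20), with an adjusted p of 0.0161 in edgeR's test. The log2 fold change was 0.15 and 0.12 without 2-D replicates 1 and 2, and 0.13 and 0.15 without 3-D replicates 1 and 2. The call was lost when either 2-D library was left out, in fits where only the 3-D libraries give the spread. It was also lost with edgeR's likelihood ratio test (adjusted p = 0.131) and with scaling by library size alone (log2 fold change 0.071, adjusted p = 0.170). The pseudogenes ATF4P3 and ATF4P4 held 0.373% and 0.117% of its counts.

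DDIT3 (ENSG00000175197.12, chr12:57516588-57521737, minus strand) encodes CHOP, a factor downstream of ATF4 that is linked to cell death in prolonged ER stress. It was at 14.3 and 13.5 CPM in 2-D and at 12.2 and 8.76 CPM in 3-D grown cells. Both 3-D libraries were below both 2-D libraries, but the 3-D libraries were further apart (10.5 ± 2.41 CPM, SD, n = 2) than the 2-D libraries (13.9 ± 0.579 CPM). The log2 fold change of -0.40 ± 0.12 (95% interval -0.67 to -0.13) was the largest in size among the members, and its adjusted p was 0.0733 in edgeR's test. It rested on 3-D replicate 2, since it was -0.19 (adjusted p = 0.278) without that library and -0.66 (adjusted p = 3.63e-05) without 3-D replicate 1, and the adjusted p was 0.0408 without 2-D replicate 2. It passed with scaling by library size alone (-0.46, adjusted p = 0.0299) and without the filter on low counts (adjusted p = 0.00278). It did not pass with DESeq2 (adjusted p = 0.192), the likelihood ratio test (0.0911) or limma (0.0838). Of its main transcript, 35.9% also lies in exons of MARS1, on the other strand, or of ENSG00000285133, which had 0 counts in every library, and the setting for strand in the counting is not given in the sources used here.

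XBP1 (ENSG00000100219.16, chr22:28794555-28800597, minus strand) encodes the factor made active by IRE1 splicing. Its level was 124 and 127 CPM in 2-D and 121 and 122 CPM in 3-D grown cells. The 3-D libraries lay just below the 2-D libraries, with a log2 fold change of -0.047 ± 0.030 (95% interval -0.11 to 0.018) and an adjusted p of 0.411 in edgeR's test. With scaling by library size alone it was called lower (log2 fold change -0.11, adjusted p = 0.0389).

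Among the ATF4 target genes of the set, TRIB3, CHAC1 and ASNS, none was called. TRIB3 (ENSG00000101255.11, chr20:362835-397559, plus strand), a pseudokinase that restrains ATF4 and CHOP, was at 6.71 and 6.78 CPM in 2-D and at 5.60 and 5.86 CPM in 3-D grown cells. Both 3-D libraries were lower, with a log2 fold change of -0.24 ± 0.12 (95% interval -0.49 to 0.020) and an adjusted p of 0.277 in edgeR's test. CHAC1 (ENSG00000128965.13, chr15:40952962-40956512, plus strand), an enzyme that breaks down glutathione, went the other way. It had 16.8 and 17.2 CPM in 2-D and 17.8 and 19.3 CPM in 3-D grown cells, with a log2 fold change of 0.12 ± 0.079 (95% interval -0.046 to 0.30) and an adjusted p of 0.408 in edgeR's test.

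ASNS (ENSG00000070669.17, chr7:97851677-97872542, minus strand), which makes asparagine, cannot be read as a level here. It had only 59 to 122 counts per library, or 3.54 and 3.38 CPM in 2-D and 2.87 and 3.35 CPM in 3-D grown cells. Of the 2385 bases of its main transcript, 2374 (99.5%) also lie in exons of the long non-coding gene ENSG00000284707 on the same strand. That gene had 33 and 28 counts in 2-D and 19 and 5 counts in 3-D, and how reads that fit more than 1 gene were counted is not given in the sources used here. As counted, the log2 fold change was -0.16 ± 0.16 (95% interval -0.52 to 0.20), with an adjusted p of 0.655 in edgeR's test. With the overlapping gene and the pseudogenes ASNSP1, ASNSP3 and ASNSP6 added it was -0.27 (adjusted p = 0.312).

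HSP90B1 and HSPA5, the main chaperones of the ER lumen, were the most abundant members. HSPA5 (ENSG00000044574.8, chr9:125234853-125241382, minus strand) encodes BiP, which holds unfolded chains and keeps the stress sensors inactive. It was at 835 and 821 CPM in 2-D and at 854 and 849 CPM in 3-D grown cells, from 15223 to 28755 counts. Both 3-D libraries were slightly higher, with a log2 fold change of 0.040 ± 0.029 (95% interval -0.024 to 0.10) and an adjusted p of 0.495 in edgeR's test. The interval thus reached no further than 1.07 times the 2-D level. With scaling by library size alone the sign turned (-0.024).

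HSP90B1 (ENSG00000166598.15, chr12:103930107-103953931, plus strand) encodes GRP94, the ER form of HSP90. Its level was 1184 and 1193 CPM in 2-D and 1269 and 1274 CPM in 3-D grown cells. Libraries of a condition were within 10 CPM of each other, and both 3-D libraries were above both 2-D libraries. The log2 fold change was 0.10 ± 0.029 (95% interval 0.035 to 0.16), with an adjusted p of 0.0597 in edgeR's test. It passed with DESeq2 (adjusted p = 0.0167) and with limma (adjusted p = 0.0177), but was 0.034 (adjusted p = 0.552) with scaling by library size alone. Leaving out 3-D replicate 1 or 2 gave adjusted p of 0.00513 and 0.00526, and leaving out 2-D replicate 1 or 2 gave 0.362 and 0.277. The pseudogenes HSP90B2P and HSP90B3P held 0.231% and 0.0451% of its counts, and 14.8% of its main transcript lies in exons of UQCC6 or MIR3652.

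DNAJB9 (ENSG00000128590.5, chr7:108569867-108574850, plus strand) encodes ERdj4, a co-chaperone of BiP that is induced by spliced XBP1 and restrains IRE1. It was at 14.4 and 15.8 CPM in 2-D and at 12.7 and 11.5 CPM in 3-D grown cells. Both 3-D libraries were lower, with a log2 fold change of -0.31 ± 0.092 (95% interval -0.51 to -0.11) and an adjusted p of 0.0590 in edgeR's test. It passed without 2-D replicate 1 (adjusted p = 0.0471) and without 3-D replicate 1 (adjusted p = 0.00942), and not without 2-D replicate 2 (0.352) or 3-D replicate 2 (0.126). HERPUD1 (ENSG00000051108.15, chr16:56932142-56944864, plus strand) encodes a membrane protein of the complex that passes misfolded proteins to the proteasome. It was at 33.9 CPM in both 2-D libraries and at 31.1 and 34.5 CPM in 3-D, so that it was the member whose conditions overlapped. Its log2 fold change was -0.050 ± 0.066 (95% interval -0.19 to 0.093), with an adjusted p of 0.739 in edgeR's test, and the sign turned (0.025) without 3-D replicate 1.

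**Figure D2:**
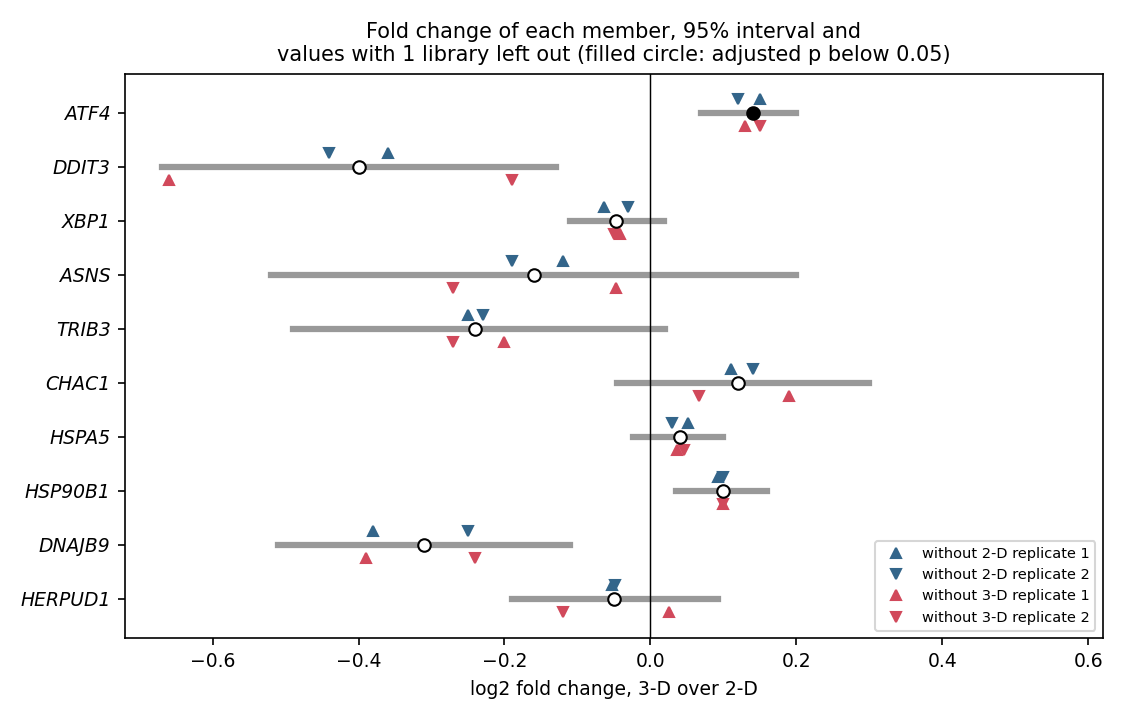
Log2 fold change of each member (horizontal axis, above 0 where 3-D is higher), with circles for the estimate from all libraries, grey bars for its 95% interval and triangles for the values with 1 library left out. ATF4 is the only filled circle, at 0.14, and DDIT3 moves furthest when a library is left out, from -0.66 to -0.19.

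Per kilobase of the main transcript, which allows genes to be compared with each other, the members fell into a high and a low group in both conditions. HSP90B1 led with 427 ± 2.34 CPM per kilobase in 2-D and 457 ± 1.14 in 3-D (SD, n = 2). HSPA5 and ATF4 came next, at 211 ± 2.43 and 207 ± 3.60 CPM per kilobase in 2-D, where their libraries overlapped. In 3-D grown cells ATF4, at 228 ± 1.96, stood above HSPA5, at 217 ± 0.897, with no overlap. The order of these close genes depends on the length used, which the SD does not cover. HSPA5 has 3921 bases in its main transcript and 6530 in all its exons, and ATF4 has 1419 and 2613. XBP1 followed with 70.3 ± 1.14 in 2-D and 68.1 ± 0.309 in 3-D. DDIT3 (15.4 ± 0.641), HERPUD1 (11.9 ± 0.0214) and CHAC1 (11.2 ± 0.207) were apart from each other in 2-D. In 3-D grown cells their order was CHAC1 (12.2 ± 0.717), DDIT3 (11.6 ± 2.67) and HERPUD1 (11.5 ± 0.838), with libraries that overlapped. DNAJB9 had 6.28 ± 0.403 and 5.04 ± 0.352 and TRIB3 had 2.86 ± 0.0224 and 2.43 ± 0.0786 CPM per kilobase in 2-D and 3-D, and ASNS was left out of the order for its shared exons.

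**Figure D3:**
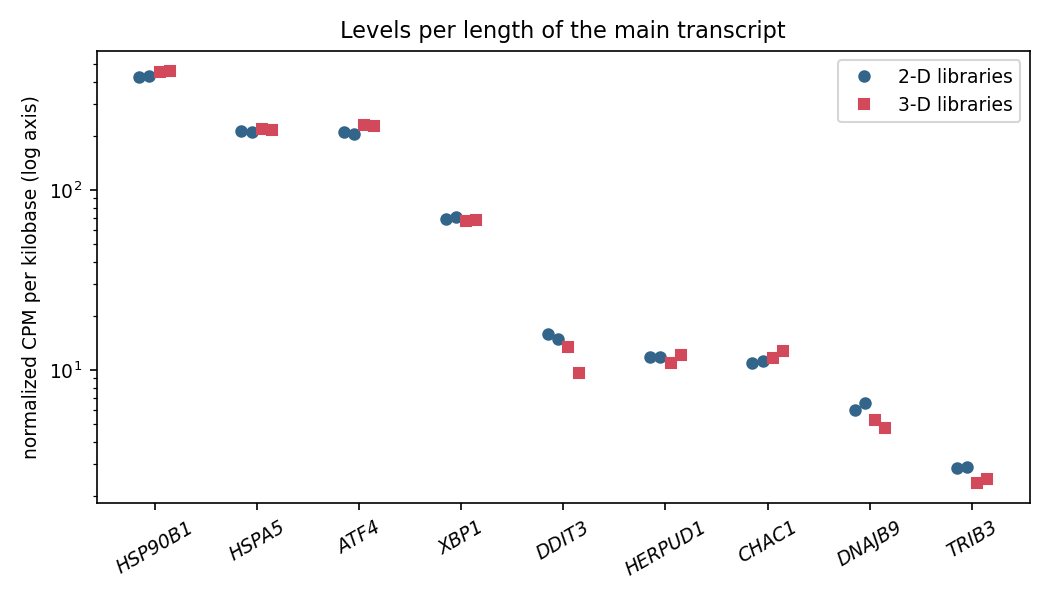
CPM per kilobase of the main transcript (log axis) of 9 members in each library, in the order of their 2-D means. HSP90B1, HSPA5, ATF4 and XBP1 lie at 67.8 to 458 CPM per kilobase, and the others at 2.37 to 15.8.

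The upstream parts of both responses were next examined in lists of pathway genes, with 188 of 193 genes tested, the members among them. In all, 37 of the 188 (19.7%) were called, beside 7.90% of all tested genes, with 20 higher and 17 lower in the 3-D libraries. The median log2 fold change of the 188 was 0.00013. The lists were chosen with earlier results of these data known. Calls depended on level: of genes with a mean of at least 10 CPM, 20.8% of 173 pathway genes and 15.1% of all 10211 tested genes were called, and of those with at least 100 CPM, 32.9% of 70 pathway genes and 31.7% of all 2214. The direction of calls also depended on scaling, with 6 higher and 39 lower when libraries were scaled by size alone. Without 2-D replicate 1 or 2 the calls were 22 or 13, and without 3-D replicate 1 or 2 they were 50 or 49. The calls of EIF4EBP1, MTHFD2, OS9, PRKCSH, PSAT1, SLC3A2, SPCS3 and SSR2 were kept under all 13 alternatives, and every other called pathway gene lost its call under 1 to 6 of them.

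Of the sensors, the ISR kinases, ERN1 and ATF6 differed little and were not called. The ISR kinases EIF2AK1 (HRI), EIF2AK2 (PKR), EIF2AK3 (PERK) and EIF2AK4 (GCN2) had log2 fold changes of 0.042 ± 0.033, 0.048 ± 0.032, 0.027 ± 0.050 and -0.037 ± 0.030, with adjusted p of 0.428 to 0.827 in edgeR's test. PERK mRNA was at 44.9 and 43.5 CPM in 2-D and at 45.7 and 44.3 CPM in 3-D grown cells. ERN1, which encodes IRE1, was at 12.0 and 11.8 CPM against 11.7 and 10.9 CPM (log2 fold change -0.075 ± 0.091), and ATF6 at 35.4 and 34.8 CPM against 36.0 and 36.6 CPM (0.047 ± 0.057), neither called.

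Of the 18 tested UPR sensors and factors, 1 (5.56%) was called, beside 7.90% of all tested genes, and the list's median log2 fold change was 0.030. It was ERN2, the IRE1 paralog known from epithelia with mucus, which fell by 0.97 on the log2 scale (SE 0.26, adjusted p = 0.0409 in edgeR's test) at a level of 3.69 and 2.69 CPM in 2-D and 2.09 and 1.12 CPM in 3-D. Its call was lost when 2-D replicate 1 (adjusted p = 0.153) or 3-D replicate 2 (0.108) was left out and with limma (0.0584), and DESeq2 gave it no adjusted p. CREB3L1, an ER membrane factor released by cleavage as ATF6 is (log2 fold change 0.45 ± 0.13, adjusted p = 0.0597), and DNAJB9 had the largest values among those not called. ATF6B and AGR2, also of the list, did not pass the filter on low counts and were not tested. ATF6B had 3 and 1 counts in 2-D and 49 and 7 in 3-D, and AGR2 had 10 and 3 against 0 and 1.

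Among 25 ISR regulators, 4 (16.0%) were called, 3 higher and 1 lower, and the list's median log2 fold change was -0.023. The share called was 7.90% over all tested genes, 15.1% at 10 CPM or more and 31.7% at 100 CPM or more. Besides ATF4, PPP1R15A, which encodes the inducible phosphatase subunit GADD34 that reverses eIF2 phosphorylation, had 22.4 and 20.4 CPM in 2-D and 25.8 and 25.4 CPM in 3-D grown cells. It was higher by 0.26 ± 0.072 on the log2 scale, with an adjusted p of 0.0478 in edgeR's test, 0.217 with DESeq2, 0.0517 with at least 10 counts required in every library, 0.134 with the likelihood ratio test, 0.118 with scaling by library size alone, 0.362 without 2-D replicate 2 and 0.0523 without 3-D replicate 1. PPP1R15B, the constitutive phosphatase subunit, had a log2 fold change of -0.10 ± 0.029 and was not called (adjusted p = 0.0634). ATF5, a factor translated like ATF4, was higher (19.4 and 20.3 against 25.7 and 23.9 CPM, log2 fold change 0.33 ± 0.072, adjusted p = 0.0158, 0.0870 with DESeq2 and 0.0798 without 2-D replicate 1), and CEBPG, a partner of ATF4, was lower (-0.16 ± 0.038, adjusted p = 0.0192, 0.193 with DESeq2, 0.0885 with the likelihood ratio test, and 0.0639 and 0.275 without 2-D replicates 1 and 2). Of the regulators not called, NUPR1 (log2 fold change 0.71 ± 0.38, at under 1 CPM) and DDIT3 had the largest values.

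The 42 ATF4 target genes went both ways, with 4 called higher and 5 lower (21.4% called), at a median of -0.011 on the log2 scale. Over all tested genes 7.90% were called, 15.1% of those with at least 10 CPM and 31.7% of those with at least 100 CPM. Genes of serine and folate metabolism and of amino acid transport were found in both directions. PSAT1, of serine synthesis, was lower, at 431 and 427 CPM in 2-D and 379.5 and 370.1 CPM in 3-D grown cells (log2 fold change -0.19 ± 0.030, adjusted p = 0.00183), as was MTHFD2, of mitochondrial folate metabolism (-0.21, adjusted p = 0.00113). SHMT2, of the same pathway, was higher (0.12, adjusted p = 0.0293), but its call was lost with DESeq2 (0.190), limma (0.0559), the likelihood ratio test (0.176), library size alone (0.316) and without 2-D replicate 1 (0.124) or 2 (0.363). The transporters SLC3A2 (-0.18), SLC38A2 (-0.16) and SLC7A11 (-0.15), the cystine transporter, were lower, while SLC7A5 (0.14), which pairs with the SLC3A2 product to import leucine, was higher. EIF4EBP1, a repressor of translation, was at 42.5 and 42.7 CPM in 2-D and at 54.4 and 52.8 CPM in 3-D grown cells (0.33 ± 0.047, adjusted p = 0.00104), and the tRNA synthetase TARS1 was higher by 0.13. SLC7A5, TARS1 and SLC38A2 had adjusted p of 0.0825 to 0.173 without 2-D replicate 2, SLC7A5 and TARS1 had 0.0558 and 0.128 without 2-D replicate 1, and SLC7A11 had 0.239 without 2-D replicate 2 and 0.0997 without 3-D replicate 2. The likelihood ratio test also lost the calls of SLC7A5 (adjusted p = 0.217), TARS1 (0.158), SLC7A11 (0.124) and SLC38A2 (0.0700). Scaling by library size alone lost those of SLC7A5 (0.250) and TARS1 (0.183), and DESeq2 (0.111) and limma (0.0668) that of SLC7A11. DDIT3 and GDF15 (-0.26 ± 0.11, adjusted p = 0.214), a secreted stress factor, had the largest values among those not called. Of the MTHFD2 main transcript, 36.8% is shared with exons of other genes.

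Calls among ER chaperones and folding enzymes were mostly higher in 3-D grown cells, with 9 of 43 called higher and 2 lower (25.6% called, median 0.040 on the log2 scale). Well expressed genes in general leaned the same way. Of all tested genes 4.54% were called higher and 3.36% lower, and of those with at least 100 CPM 20.9% and 10.8%. With scaling by library size alone, 1 gene of the list was called higher and 6 lower. The summed level of the list was 8752 to 8770.1 CPM in 2-D and 9245 to 9329 CPM in 3-D grown cells. The lectin chaperones calreticulin and calnexin were among them. CALR had 953 and 939.9 CPM against 1089 and 1029.7 CPM (log2 fold change 0.16 ± 0.033, adjusted p = 0.0103), and CANX had 1041 and 1059 CPM against 1152 and 1125 CPM (0.12 ± 0.030, adjusted p = 0.0329). Both of these work with PDIA3 (0.12 ± 0.029), and PRKCSH, a subunit of the glucosidase that makes their substrate, had the smallest adjusted p of the list (0.000703), at 189.8 and 185 CPM in 2-D and 220.4 and 219 CPM in 3-D grown cells (0.23 ± 0.030). HYOU1, a nucleotide exchange factor of BiP, was higher by 0.15 ± 0.030 (333 and 326 against 362 and 368 CPM, adjusted p = 0.00986).

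The other 4 of the higher chaperones, SERPINH1 (0.12), FKBP10 (0.20), P4HB (0.14) and PPIB (0.14), take part in collagen folding or modification. All 4 lost their call in edgeR's test with scaling by library size alone (adjusted p = 0.355, 0.0515, 0.142 and 0.197). FKBP14 (-0.13 ± 0.071) and FKBP7 (-0.15 ± 0.16), of the same family as FKBP10, were lower and not called. Of 8 tested fibroblast markers, 3 were called higher in 3-D grown cells, COL3A1 (0.73), COL1A1 (0.29) and THY1 (0.22), beside 4.54% of all tested genes. THY1 was at 75.2 to 91.0 CPM in all libraries. COL1A2, the most abundant of the markers, was at 321 CPM in 2-D and 313 CPM in 3-D on average and was not called (-0.037 ± 0.037). PDGFRA (0.30 ± 0.31), PDGFRB (0.017 ± 0.13), FAP (1.01 ± 0.50) and TWIST1 (0.23 ± 0.13) were not called either. DCN and LUM did not pass the filter. DCN was at 0.145 and 0.195 CPM in 2-D and 0.0973 and 0.112 CPM in 3-D, and LUM at 0.0871 and 0.325 against 0.243 and 0.948 CPM. The summed level of the 10 markers was 535 to 543 CPM in 2-D and 554 to 603 CPM in 3-D grown cells. The part of these markers in the chaperone values was not tested. PPIB shares 57.6% of its main transcript with exons of SNX22. TMX3 (-0.21) and TMX1 (-0.13), membrane oxidoreductases, were called lower, and CDNF (0.18 ± 0.17) and DNAJB9 had the largest values among those not called. The list gave 1 call without 2-D replicate 2 and 6 calls without 2-D replicate 1, and PRKCSH kept its call in all 4 fits with a library left out.

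Of 29 tested genes of ER-associated degradation, 5 were called lower and 2 higher (24.1% called, median -0.0025). The share called was 7.90% over all tested genes, 15.1% at 10 CPM or more and 31.7% at 100 CPM or more. The balance of lower and higher calls was not stable. DESeq2 gave 0 lower and 1 higher, and leaving out 2-D replicate 1 gave 1 lower and 2 higher. EDEM1, which picks glycoproteins for degradation, was lower, at 40.2 and 39.9 CPM in 2-D and 33.3 and 32.9 CPM in 3-D grown cells (-0.28 ± 0.056, adjusted p = 0.00940, 0.0529 with DESeq2). SELENOK (-0.26), SELENOS (-0.24), the ubiquitin ligase MARCHF6 (-0.15) and SEL1L (-0.15), the scaffold of the ligase complex that HERPUD1 binds, were lower too. OS9 (0.21), a lectin of the same complex, and AUP1 (0.20) were higher, and SYVN1, its ligase (0.18 ± 0.063, adjusted p = 0.117), and HERPUD2 (0.14 ± 0.080) had the largest values among those not called. Without 2-D replicate 2 the adjusted p of SELENOK, SELENOS, MARCHF6, SEL1L and AUP1 were 0.0978 to 0.229, and without 2-D replicate 1 those of the first 4 were 0.0666 to 0.171. Leaving out 3-D replicate 1 gave 0.0527 for SELENOS, and leaving out 3-D replicate 2 gave 0.0592 for SELENOK. DERL3 and RNF5 had 0 counts in every library, and 88.8% of the DERL3 main transcript lies in exons of SMARCB1. How reads that fit more than 1 gene or place were counted is not given in the sources used here. The 0 counts were therefore not read as absent RNA.

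Of 36 genes of protein entry into the ER and of vesicle coats, 2 were called higher and 3 lower (13.9% called, median -0.0030). The share called was 7.90% over all tested genes, 15.1% at 10 CPM or more and 31.7% at 100 CPM or more. SSR2 (0.19) was higher and SSR3 (-0.12) lower, though both encode subunits of the translocon-associated complex. SRP14 (0.20), of the signal recognition particle, was higher, and SPCS3 (-0.22), of signal peptidase, and KDELR2 (-0.15), a receptor that returns ER chaperones, were lower. Without 2-D replicate 2 the adjusted p of SSR3, SRP14 and KDELR2 were 0.239, 0.0680 and 0.317, and that of SSR3 was 0.192 without 2-D replicate 1. KDELR3 (-0.18 ± 0.11) and SPCS2 (-0.17 ± 0.060) had the largest values among those not called.

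**Figure D4:**
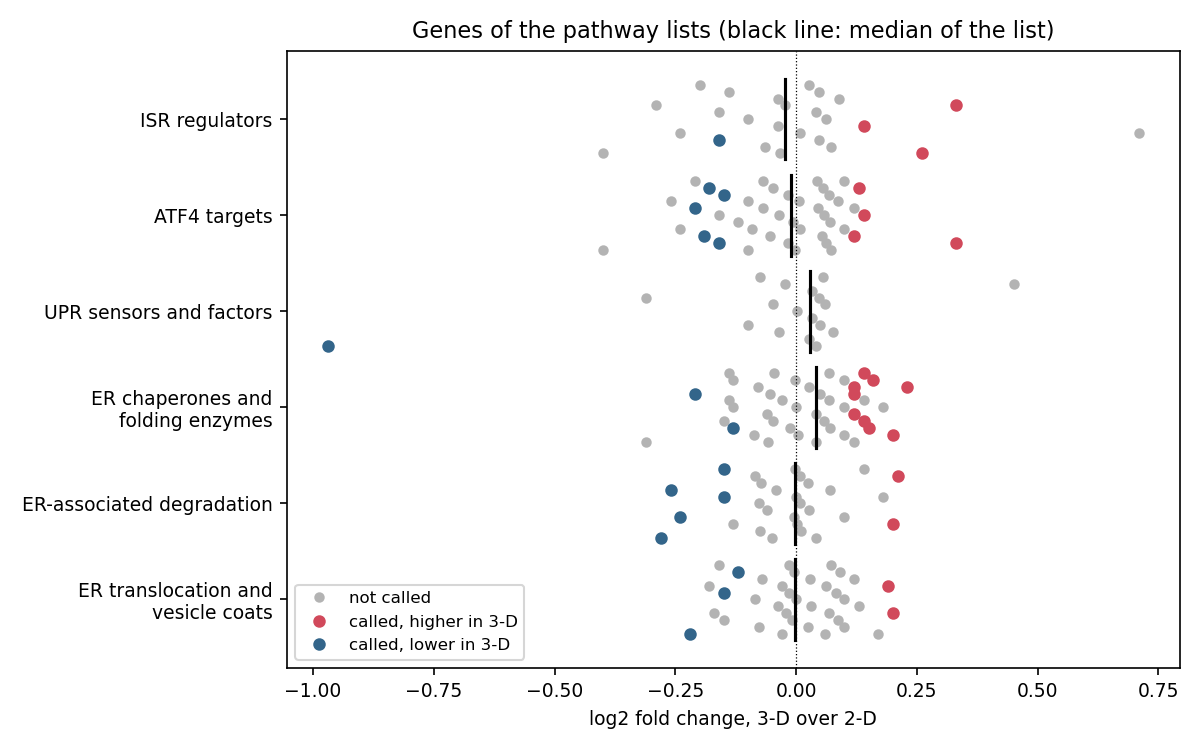
Log2 fold change (horizontal axis, above 0 where 3-D is higher) of each tested gene of the 6 pathway lists, with called genes in red (higher in 3-D) or blue (lower) and a black line at the median of each list. Medians lie between -0.023 and 0.040, and the blue point at -0.97 is ERN2.

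The promoters of the members carry the known response elements to differing degrees. In windows from RefSeq (GRCh38.p14) with 250 bases before and 50 after each gene start, 4 motifs were searched on both strands. Only exact matches to each pattern were counted. The ER stress response element ERSE, bound by ATF6 with NF-Y, was in 0.0769% of 35116 windows, ERSE-II in 0.0541%, the core of the UPR element in 0.729% and the composite element of C/EBP and ATF4, CARE, in 3.62%. All 10 members had a window. ERSE was found in HSP90B1, HSPA5 and XBP1 and ERSE-II in HERPUD1, CARE was found in ASNS, CHAC1 and HERPUD1, the core of the UPR element in no member, and the windows of ATF4, DDIT3, TRIB3 and DNAJB9 held none of the 4 motifs. The sites are shown with their surroundings on the strand of the gene, with the whole match, spacer bases included, in capitals, and marked as reversed where it is the reverse complement.
HSP90B1, ERSE (chr12:103930211-103930239): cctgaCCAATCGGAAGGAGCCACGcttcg
HSP90B1, ERSE reversed (chr12:103930316-103930344): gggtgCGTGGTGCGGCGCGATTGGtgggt
HSPA5, ERSE (chr9:125241386-125241414): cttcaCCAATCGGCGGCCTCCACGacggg
XBP1, ERSE (chr22:28800598-28800626): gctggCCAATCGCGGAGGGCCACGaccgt
HERPUD1, ERSE-II (chr16:56932016-56932044): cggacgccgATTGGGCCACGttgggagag
HERPUD1, CARE reversed (chr16:56931955-56931984): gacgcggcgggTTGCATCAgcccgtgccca
ASNS, CARE (chr7:97872458-97872487): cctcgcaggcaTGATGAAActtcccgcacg
CHAC1, CARE reversed (chr15:40953251-40953280): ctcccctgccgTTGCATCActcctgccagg

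The ERSE of HSPA5 and XBP1 began 66 and 52 bases before the start, the ERSE of HSP90B1 194 and 89 bases before it and the ERSE-II of HERPUD1 117 bases before it. The members that hold one or the other differed in value, since HSP90B1 (0.10) and HSPA5 (0.040) were higher and XBP1 (-0.047) and HERPUD1 (-0.050) lower in 3-D grown cells, and none was called. Of the 3 members with CARE, CHAC1 was at 0.12 and HERPUD1 and ASNS at -0.050 and -0.16. Of all pathway genes, 11 held ERSE or ERSE-II, of which 3 (27.3%) were called higher and none lower, and their median was 0.049 on the log2 scale. Over the whole genome 33 tested genes held one or the other, and 5 were called higher and 2 lower (21.2% called, median 0.049). These 33 include the 11 pathway genes, so they are not a separate background. Of all tested genes 7.90% were called, and 31.7% of those with at least 100 CPM, where the 3 called pathway genes CALR, CANX and HYOU1 lie. All 3 calls were lost with library size alone (adjusted p = 0.0728, 0.328 and 0.111), with the likelihood ratio test (0.0904, 0.286 and 0.0840) and without 2-D replicate 2 (0.0582, 0.131 and 0.169), and that of CANX without 2-D replicate 1 (0.269). Their sites are shown in the same way for comparison with those of HSP90B1 and HSPA5.
CALR, ERSE reversed (chr19:12938379-12938407): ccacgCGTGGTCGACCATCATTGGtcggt
CANX, ERSE (chr5:179698773-179698801): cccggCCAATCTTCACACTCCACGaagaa
HYOU1, ERSE-II reversed (chr11:119057371-119057399): gccccgtgaCGTGGTCCAATcccaggccg
HYOU1, ERSE-II reversed (chr11:119057265-119057293): ggcctgggaCGTGGTCCAATgagtacgcg

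CARE was held by 21 tested pathway genes, of which TARS1 was called higher and SLC3A2 and CEBPG lower (14.3% called, median -0.0067), and over the genome 378 tested genes held it, with 6.88% called and a median of 0.00038. A match in these letters is a description of the window and does not show that a factor was bound in these cells. Nor does a window without a match show that the gene lacks the element, since variant letters and sites outside the window were not searched.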

How the data were processed

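RNA of 2 libraries from 2-D and 2 from 3-D grown Elf1 cells was analysed. The authors depleted ribosomal RNA, trimmed reads with Trim Galore 0.6.3, mapped them to hg38 with HISAT2 2.1.0 and counted them per gene with featureCounts 1.6.4 and a GENCODE annotation, and the deposited counts are whole numbers without normalization. The deposited normalized signal is counts divided by size factors of DESeq2 2.11.40.6, by the authors, and was used for 1 alternative. The authors' log2 fold changes, p-values and scores of their own comparison in that table were not used.

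Counts were fitted with edgeR 4.0.16 in R 4.3.3 (TMM, filterByExpr with a minimum count of 10, quasi-likelihood test, condition alone, Benjamini-Hochberg adjustment over 22555 genes, called at adjusted p below 0.05). The fit was tested on simulated data. The SE was derived as the absolute log2 fold change divided by the root of the F statistic. Symbols, positions, main transcripts (the Ensembl canonical ones) and shared exons come from GENCODE release 44. The patterns of the promoter elements are consensus forms from general knowledge. Totals were 18276147 to 33833778, which limits the precision of genes with few counts. Libraries of a condition differed by more than sampling noise (chi-square over its degrees of freedom 2.45 in 2-D and 4.39 in 3-D).

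Members and lists were chosen with earlier results of these data known. The text names all members, every called gene of a pathway list, the 2 largest changes not called in each list, the sensors and phosphatase subunits, and copies of members. Alternatives were DESeq2 1.42.0, limma 3.58.1 on log2 of the normalized signal plus 1, the likelihood ratio test, DESeq2 size factors, library size alone, other filters, a replicate block, each library left out and, chosen after seeing the data, members summed with overlapping genes and copies.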

Additional observations from a re-analysis of the deposited data

How the results depend on the processing

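The number of genes called was 1782, 795 with DESeq2 and 1139 with the likelihood ratio test, and 974 to 2643 with a library left out. With scaling by library size alone it was 2393, of which 514 were higher and 1879 lower, beside 1024 and 758 with TMM, while the median log2 fold change of all genes moved to -0.065. Of the 10 members 1 was called, and 2 with DESeq2, 0 with the likelihood ratio test, 3 with library size alone, 2 with limma, 4 without the filter on low counts, 3 with the replicate block and 1 to 4 with a library left out. Calls in the pathway lists were 37, 20 with DESeq2, 13 with the likelihood ratio test and 13 to 50 with a library left out. In DESeq2, ASNS and TRIB3 had no adjusted p. The log2 fold change of HSPA5 reversed to -0.024 with library size alone and that of HERPUD1 to 0.025 without 3-D replicate 1 (lowest value with a library left out -0.12), and the cause was not tested. Deviations of the same-numbered libraries from their condition means had a correlation of -0.00792 over 22555 genes. With 2 libraries per condition this cannot decide whether the replicate numbers pair the samples. The replicate block gave 2167 calls, with DDIT3 at an adjusted p of 0.0203 and HSP90B1 at 0.0311. TRIB3, CHAC1 and ASNS kept their direction and were called under no alternative that gave them an adjusted p. Depth limits genes with few counts per library, such as ASNS, ERN2 and NUPR1.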
